A study of Mus musculus with 7 samples.

Results

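Open chromatin regions (OCRs) that lie away from gene starts and stay open over a long stretch of DNA were described in HPC7, a mouse hematopoietic progenitor cell line that is grown in stem cell factor, the ligand of the receptor KIT. The data were the deposited peak lists of 7 bulk ATAC-seq libraries, HPC7-1, HPC7-2 and HPC7-4 to HPC7-8, made from separate culture batches according to the methods. All libraries belong to 1 group, so that no conditions were compared. Peaks of the 7 lists that overlapped by at least 1 bp were merged, and a merged OCR was kept when it lay on an autosome, held a peak in all 7 lists, was at least 1500 bp wide and lay more than 3 kb from every GENCODE M21 transcript start on the mm10 build. The members were thus selected on their width and on a peak in every list, both measured values. This left 4450 broad distal OCRs of 39666 distal autosomal OCRs in all 7 lists (11.2%) and of 144931 merged OCRs in the series. The 35216 distal OCRs under 1500 bp in all 7 lists, called narrower from here on, served as the comparison, and 6216 of these were 1000 bp wide or wider.

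In ATAC-seq the Tn5 transposase cuts where DNA is not wrapped in nucleosomes, so that reads pile up over promoters, enhancers and insulators. Distal OCRs of blood progenitors are where transcription factors of the GATA, RUNX, ETS, basic helix-loop-helix (E-box) and TALE homeodomain (MEIS) families are known to bind, while CTCF binds at insulators and loop anchors. Enhancers of genes that set cell identity often lie next to each other, and several of them can merge into 1 wide OCR.

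The strongest members in or near listed blood transcription factor genes are shown first, because they are the regions in which such sites can be read directly. Each sequence is the median summit of the 7 libraries with 100 bp on either side, read from the plus strand of GRCm38.p6 (mm10), 5′ to 3′. Capitals mark matches, on either strand, to the letters AGATAA for the GATA motif, AGGAAGT for ETS, TGTGGT for RUNX, CAGCTG for the E-box, TGANTCA for AP-1, TTGCNNAA for C/EBP, TGACAG for MEIS and GGGCGG for the GC box, or to the CTCF consensus. A match is a run of letters and not a measured binding site.
Zfp36l2 (chr17:84161431-84161631): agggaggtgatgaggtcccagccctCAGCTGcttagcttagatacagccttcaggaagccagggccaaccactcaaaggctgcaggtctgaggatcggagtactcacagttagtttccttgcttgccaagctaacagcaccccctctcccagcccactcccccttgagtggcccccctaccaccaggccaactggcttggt
Ikzf1 (chr11:11657201-11657401): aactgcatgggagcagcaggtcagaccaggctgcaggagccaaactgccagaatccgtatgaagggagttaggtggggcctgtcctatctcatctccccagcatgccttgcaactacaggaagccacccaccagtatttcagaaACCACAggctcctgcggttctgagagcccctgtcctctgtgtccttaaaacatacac
Runx2 (chr17:44654621-44654821): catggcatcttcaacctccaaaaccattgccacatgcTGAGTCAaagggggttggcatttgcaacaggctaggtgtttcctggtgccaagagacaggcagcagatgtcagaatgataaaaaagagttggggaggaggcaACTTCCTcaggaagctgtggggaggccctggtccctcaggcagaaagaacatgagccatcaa
Cbfa2t3 (chr8:122719780-122719980): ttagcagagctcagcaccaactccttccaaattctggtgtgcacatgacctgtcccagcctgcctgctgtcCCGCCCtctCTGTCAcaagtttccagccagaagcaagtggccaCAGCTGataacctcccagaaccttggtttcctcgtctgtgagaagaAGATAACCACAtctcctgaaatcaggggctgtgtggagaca
Etv6 (chr6:134186468-134186668): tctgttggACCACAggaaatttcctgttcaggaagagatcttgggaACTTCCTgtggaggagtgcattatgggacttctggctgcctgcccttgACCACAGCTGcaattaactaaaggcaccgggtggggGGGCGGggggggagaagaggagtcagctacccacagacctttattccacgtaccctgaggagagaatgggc
Klf6 (chr13:5592616-5592816): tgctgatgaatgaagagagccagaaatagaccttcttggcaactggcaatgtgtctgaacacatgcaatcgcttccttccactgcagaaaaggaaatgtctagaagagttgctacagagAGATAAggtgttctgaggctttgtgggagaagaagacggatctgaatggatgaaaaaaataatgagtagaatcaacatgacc
The summits of the 7 libraries lay within 46 bp of each other near Zfp36l2, within 16 bp near Ikzf1, 3 bp in Runx2, 13 bp near Cbfa2t3, 1 bp in Etv6 and 19 bp near Klf6. The window near Cbfa2t3 held 5 motifs (GATA, RUNX, E-box, MEIS and GC box), with the GATA and RUNX letters sharing a base. The Etv6 window held 1 ETS, 2 RUNX, 1 E-box and 1 GC box match, and 1 RUNX match there overlapped the E-box. The windows near Zfp36l2, Ikzf1 and Klf6 held 1 match each, to the E-box, RUNX and GATA letters, and the Runx2 window held an ETS and an AP-1 match. For comparison, windows of the same length at the highest summits of all 65686 autosomal OCRs in all 7 lists held the GATA letters in 14.6%, ETS in 16.96%, RUNX in 26.7%, the E-box in 14.6%, AP-1 in 10.95%, C/EBP in 7.07%, MEIS in 19.2%, the GC box in 14.7% and the CTCF consensus in 5.94% of OCRs.

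Broad distal OCRs were between 1500 and 17932 bp wide, with a median of 1917 bp, against a median of 626 bp in the narrower ones. Of the members, 2482 (55.8%) were under 2000 bp, 1527 (34.3%) were 2000 bp to under 3000 bp, 393 (8.83%) were 3000 bp to under 5000 bp and 48 (1.08%) were 5000 bp or wider. The plot of widths runs through the minimum of 1500 bp without a gap, so that the minimum cuts a continuous distribution. The 3 narrowest members, all 1500 bp wide, lay near Nemp2, Tbc1d1 and Itm2b with mean intensities of 19.9, 16.8 and 11.5. The 3 widest OCRs outside the set, all 1 bp short of the minimum, lay in Pigl, near Bcl11a and in Cd47 with mean intensities of 92.96, 45.7 and 41.6.

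**Figure D1:**
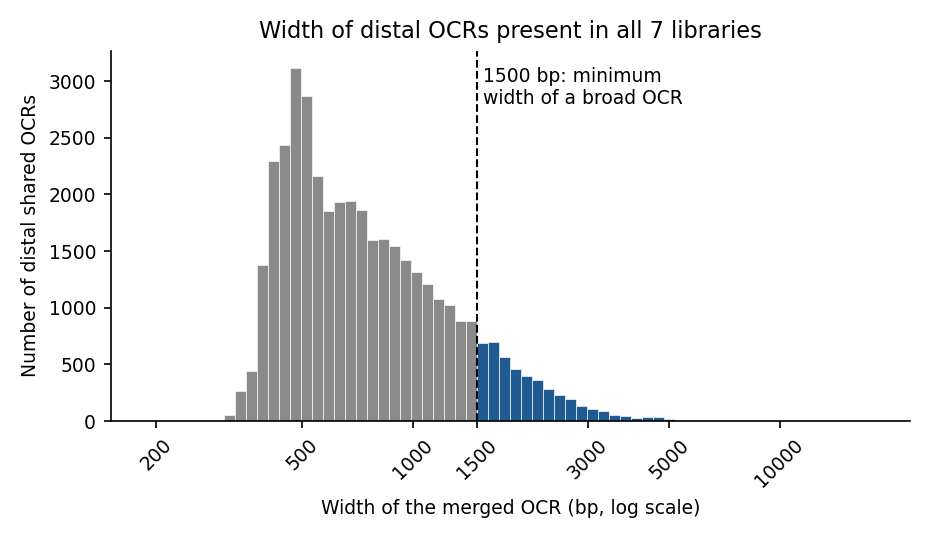
Number of distal OCRs in all 7 lists (vertical axis) by the width of the merged OCR (horizontal axis, bp, log scale). Grey bars are OCRs under 1500 bp and blue bars are the 4450 broad OCRs, whose median width was 1917 bp. The bin just below the dashed line at 1500 bp holds 881 OCRs and the bin just above it 686.

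How wide an OCR appeared depended on the library. In HPC7-1, 4107 of the 4450 members (92.3%) held a single peak of at least 1500 bp, against 1271, 2003, 1318, 1345, 2202 and 1489 in the other libraries in the order of their numbers. Only 829 members (18.6%) held such a peak in all 7 libraries, 1527 (34.3%) held it in HPC7-1 alone, and 203 (4.56%) reached the width only by joining peaks of different libraries or neighbouring peaks. The 829 had a median intensity of 68.7 and the 1527 one of 24.98. The single background that the deposited fold enrichments imply was 20.4 reads in HPC7-1 and 4.44 to 7.45 reads in the others, and the median number of reads at the summits of members was 902 in HPC7-1 and 153 to 310 in the others. By both measures HPC7-1 stood apart, and the part of its depth in the width was not tested. Without HPC7-1 the same rule gave 3151 broad distal OCRs.

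Intensity is the fold enrichment of the deposited lists, the reads at the summit over the background of the library, and an OCR takes the highest value among its peaks in a library. It was not used to choose the members, but it comes from the same peaks as the width, so it is described here without a test. From HPC7-1 through HPC7-8, the median intensity of broad distal OCRs was 42.2, 32.7, 36.8, 39.6, 24.1, 32.8 and 41.3. In the narrower distal OCRs it was 9.64, 7.72, 8.40, 9.22, 5.94, 8.15 and 10.8 in the same order of libraries. These medians of the 2 sets did not overlap in any pairing of libraries, and HPC7-6 was lowest in both. Single OCRs of the 2 sets did overlap. The difference of the medians was 0.62 ± 0.022 on the log10 scale (SD, n = 7), or 4.17-fold. Peak names carry a prefix that the labels do not explain, and the difference was 0.64 within the 3 lists of prefix VD (HPC7-1, 2 and 4) and 0.61 within the 4 of prefix EtOH. Against the narrower OCRs of at least 1000 bp it was 0.29.

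**Figure D2:**
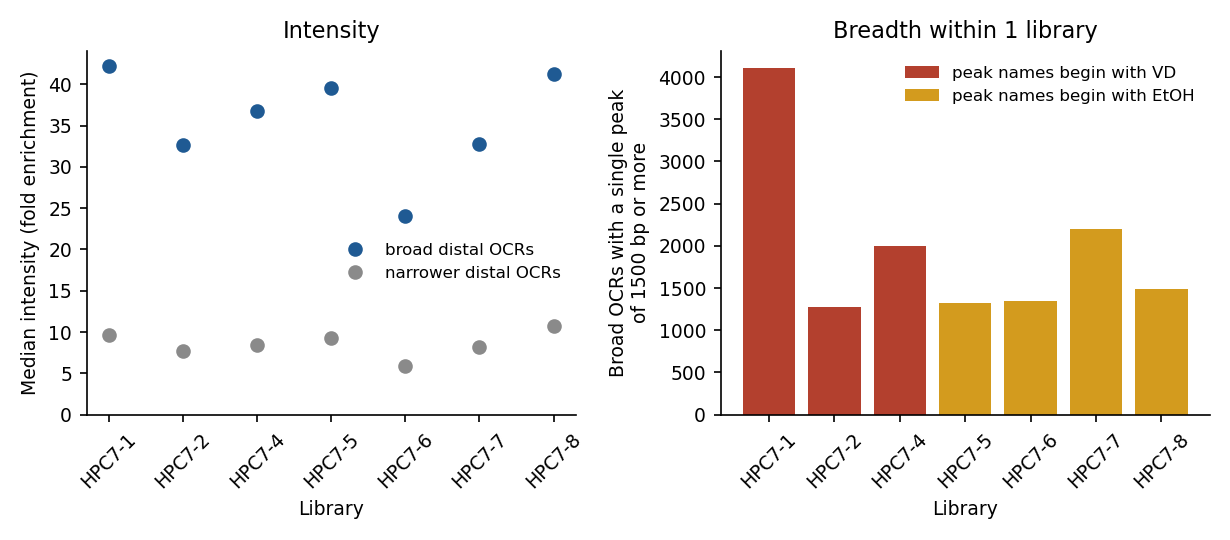
Left, median intensity (fold enrichment) of broad (blue) and narrower (grey) distal OCRs in each library. Right, number of the 4450 broad OCRs with a single peak of 1500 bp or more in that library, coloured by the prefix of the peak names. HPC7-1 has 4107 and the other libraries have 1271 to 2202, while the median intensities of the 2 sets stay apart in every library.

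Averaged over the 7 libraries, the intensity of single members ran from 3.29 to 443, with a median of 35.9. Most members, 3620 (81.3%), were above the intensity that bounds the top 25% of narrower distal OCRs, and 923 (20.7%) were above that of the top 1%. Weak members existed too, since 378 (8.49%) were below the median of the narrower OCRs. The order of the members was much alike between libraries, with a rank correlation of 0.961 to 0.988 over the 21 pairs of libraries, which share the regions. Width and intensity ran only loosely together over the members (rank correlation 0.231, over 4450 regions of the same libraries).

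A broad OCR can be 1 wide accessible stretch or several neighbouring ones. Summits were joined where neighbours lay within 150 bp, and a position was counted when summits of at least 4 libraries gathered there. By this count 3140 members (70.6%) had 1 summit position, 1168 had 2, 120 had 3, 15 had 4 or more and 7 had none. Together 1303 members (29.3%) had 2 or more, against 573 narrower distal OCRs (1.63%). Neighbouring positions were a median of 1096.5 bp apart, with quartiles of 885.75 and 1408 bp. Most narrower OCRs, with their median width of 626 bp, are too short for positions so far apart, so that this contrast follows in large part from the width rule and is not a separate result. Members with several positions were wider (median 2219 against 1837.5 bp) but less intense (24.6 against 41.6) than those with 1. The share depends on the libraries asked for, being 50.6% when 2 libraries made a position and 0.494% when all 7 were needed.

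**Figure D3:**
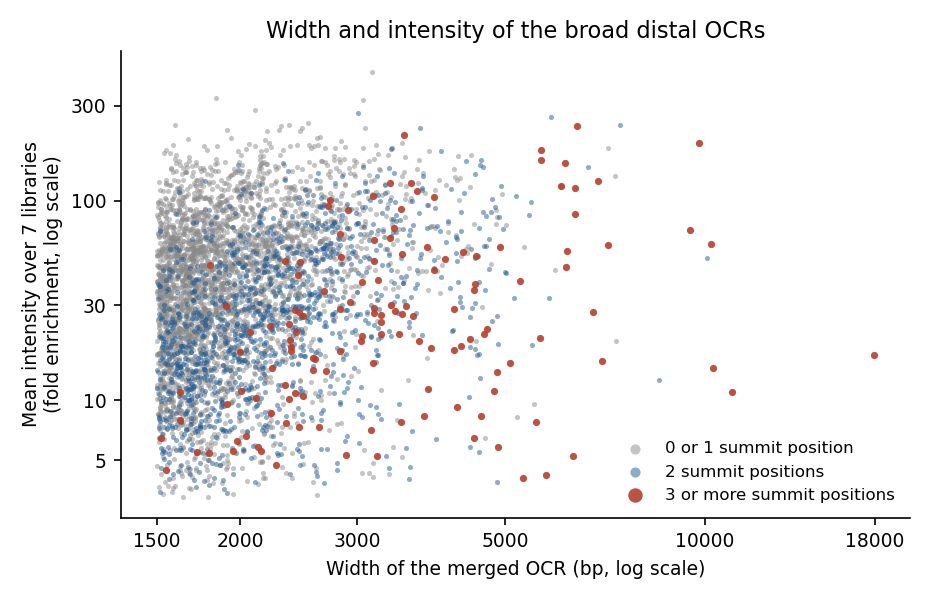
Mean intensity over 7 libraries (vertical axis, fold enrichment, log scale) against width (horizontal axis, bp, log scale) of the 4450 broad distal OCRs, coloured by the number of summit positions. Regions with 2 (blue) or more (red) positions reach farther to the right, and their median intensity of 24.6 is under the 41.6 of regions with 1 position.

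The 8 members with the highest mean intensity lay mostly outside genes, and 3 lay in a body of the gene they are named by. The strongest, chr19:61264262-61267418, had a lowest value of 361, a median of 413 and a highest of 610.5 over the 7 libraries. It lay 31.2 kb from the start of Gm21060, the nearest protein-coding gene of GENCODE, and 35801 bp from a RefSeq start of Csf2ra, a cytokine receptor subunit. The next, chr15:75085370-75087206, ranged from 263 through a median of 336 to 369.5 and lay 25.4 kb downstream of the start of Ly6c2, a surface antigen of myeloid cells. Inside Selp, the gene of the adhesion molecule P-selectin, a member at chr1:164134087-164137094 ranged from 197 through 281 to 341 and held 2 summit positions. In Gse1 on chromosome 8 a member 5863 bp wide ranged from 194 through 269.7 to 355. The other 4 lay near Haao (mean 319), Zfp960 (285), in Mdga1 (247) and near Zfp869 (241). Those near Zfp960 and Zfp869 overlapped a RefSeq transcript start that GENCODE M21 lacks. HPC7-6 gave the lowest value in 6 of the 8, and 6 of the 8 held a single peak of 1500 bp or more in every library.

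The 5 widest members were of another kind than these 8, though wide members as a class were not weak. Median intensity was 29.4 in members under 2000 bp and 43.7 at 2000 bp to under 3000 bp. It was 56.9 at 3000 bp to under 5000 bp and 53.7 at 5000 bp or wider. The widest, chr17:3006012-3023943 near Scaf8, was 17932 bp wide, held 61 peaks of the 7 lists and 7 summit positions, and its intensity was only 13.6 to 20.8 with a median of 17.5. Repeat-masked bases made up 51.8% of it. A neighbour at chr17:3024196-3034252 was 10057 bp wide with 54.4% repeat-masked bases and a mean intensity of 51.6. Regions near Trpm1 (10980 bp, 8 positions, mean 10.98, 48.3% masked) and near Olfr161 (10262 bp, 5 positions, mean 14.6, 53.0% masked) were alike in this. Among the 5 widest, 1 was low in repeats, the 10207 bp region in Zfpm1, which encodes the GATA cofactor FOG1. Only 12.3% of it was masked, it held 5 positions, and it ranged from 40.7 through 59.9 to 84.4. Besides these, 2 regions had 5 positions, and the stronger was in Dnajb12, 6409 bp wide with a mean of 236 (SD 46.8, n = 7). This region overlapped an exon of Dnajb12 and lay 521 bp from a RefSeq start of Gm46226. Over all members, 57 (1.28%) were more than 50% repeat-masked, against 7.28% of the narrower distal OCRs, while the median masked share was 15.9% in members and 14.5% in the narrower ones. None aligned to the mitochondrial genome.

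Of the 4450 members, 2720 (61.1%) overlapped a gene body, against 59.4% of the narrower distal OCRs. Members overlapped an exon more often (690, 15.5% against 9.29%), and coding sequence as well (463, 10.4% against 5.74%), which a wider region does more easily. They lay nearer to protein-coding starts, with a median of 15458 bp to the nearest against 17789 bp. Over 50 kb from one lay 17.6% against 22.7%. The distance was counted from the edge of the OCR, which brings a wider region nearer. In the narrower OCRs of at least 1000 bp the median was 16253.5 bp, and 20.2% lay over 50 kb from a start. Of these, 11.2% overlapped an exon and 7.35% coding sequence. A RefSeq start lay within 3 kb of 579 members (13.01%), so that a part of the set is distal by GENCODE only. The share was 7.04% in the narrower OCRs and 8.80% in those of at least 1000 bp. CpG-rich members were rare, with 33 (0.742%) above a CpG ratio of 0.6 and 50% GC, against 0.292% of the narrower distal OCRs. Members also lay closer together, with a median of 31.6 kb from a member to the next one, against 94.2 kb from a narrower distal OCR to the nearest member.

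Chromosomes differed in the share of distal OCRs that were broad. It was 16.3% (446 of 2739) on chromosome 8, 15.3% (364 of 2386) on chromosome 17 and 13.4% (367 of 2748) on chromosome 11, and between 7.97% on chromosome 14 and 12.02% on chromosome 5 elsewhere. On chromosome 8, 117 members lay within Gm20388, an annotated gene model of 4435 kb that spans Gse1, Zfpm1 and other genes, in which 35.5% of 330 distal OCRs were broad. The rest of chromosome 8 had 13.7%. Gse1 alone had 45 members among 67 distal OCRs, with intensities of 4.08 to 265. Among other protein-coding genes, Arid1b, a subunit of the SWI/SNF chromatin remodeller, had 16 members of 66, and Haao 13 of 26. Cmip had 10 of 39, Irf2bp2 10 of 33, Smad7, an inhibitor of TGF-beta signalling, 10 of 27, and Zmiz1 10 of 47. In all, 2939 protein-coding genes had a member in or nearest to them and 115 had 5 or more.

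Blood regulators were looked up in 4 lists of 215 genes, of which 214 were in the annotation. A member was counted when it overlapped the body of a listed gene (111 members) or when a listed gene was the nearest protein-coding gene by its start (127 more). These 238 members made up 5.35% of the set, against 3.64% of the narrower distal OCRs in or near the same genes. Seen from the genes, 15.7% of their 1519 distal OCRs were broad, beside 11.2% of all distal OCRs, and 96 of the 172 listed genes with any distal OCR had a broad one. Their median intensity was 34.5 and that of the other members 36.0, and the lists differed in direction. The median was 30.9 for transcription factors, 35.4 for cytokine receptors and signalling genes, 42.7 for surface and effector genes and 40.6 for genes mutated in leukaemia, and these differences were not tested.

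By list, blood transcription factors had 134 members at 48 genes, and 16.3% of their distal OCRs were broad. Cytokine receptors and signalling genes had 56 members at 26 genes (15.8%), blood surface and effector genes 28 at 15 genes (12.2%), and chromatin and RNA genes mutated in leukaemia 20 at 7 genes (17.7%). All 4 shares were above the 11.2% of all distal OCRs, and the surface and effector genes were nearest to it. A check of the cell type by promoters gave OCRs in all 7 lists within 3 kb of a start for 10 of 10 progenitor genes (Kit, Gata2, Runx1, Tal1, Lmo2, Spi1, Ptprc, Cd34, Lyl1 and Fli1), 0 of 3 T cell genes, 2 of 3 macrophage genes (Cd68, Csf1r) and 1 of 5 genes of other tissues (Myod1).

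The listed genes with the most members, 8 each, were Lmo2, Runx3 and Zfp36l2. Lmo2, the bridging protein of GATA and TAL1 complexes, had 8 of its 14 distal OCRs broad. Of these, 6 lay 12.1 to 64.0 kb upstream of its start and 2 within the gene. The farthest, 64.0 kb upstream, was the strongest and ranged from 59.4 through a median of 79.5 to 104, while the one 8.85 kb downstream of the start ranged from 3.86 through 5.32 to 6.44. These ranges did not overlap, although both regions passed the same width. At Runx3, a Runt-domain factor, 8 of 24 distal OCRs were broad, with mean intensities of 6.02 to 108, the highest 51.8 kb downstream of a start.

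Zfp36l2 had 8 broad among 17 distal OCRs, all outside the gene and 26.6 to 144 kb downstream of its start. The list counts it among transcription factors, but it encodes an mRNA-binding zinc finger protein. The nearest of the 8, chr17:84160141-84162512, whose summit window is printed above, ranged from 149 through 235 to 347. Further ones were 9497 and 6911 bp wide and both had 3 summit positions, with mean intensities of 71.1 and 125. The 2 weakest had means of 4.50 and 7.16, so that strong and weak broad OCRs stood side by side within 120.03 kb.

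Partners of GATA factors and of the TALE family had several members as well. Zfpm1 had 7 of 19, the widest of which is described above, with means of 5.55 to 60.8. Cbfa2t3, which encodes the corepressor ETO2, had 5 of 9. Its strongest, chr8:122718018-122723682, was 5665 bp wide with 3 summit positions, lay 21.7 kb upstream of the gene and ranged from 121 through 165 to 199. Meis1, a TALE homeodomain factor of stem cells, had 6 of 21, all inside the gene, of which that 87.4 kb from its start was the strongest with 61.2 through 93.1 to 105.

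**Figure D4:**
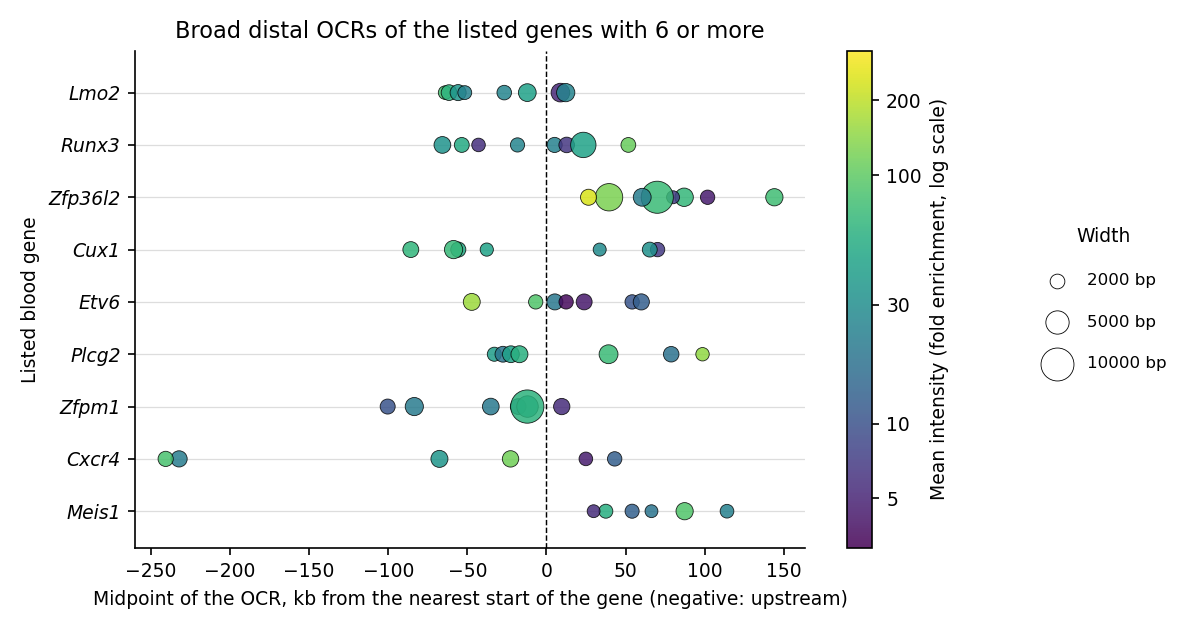
Broad distal OCRs of the 9 listed genes with 6 or more of them. The horizontal axis is the distance in kb from the midpoint of the OCR to the nearest annotated start of the gene (negative is upstream, dashed line at 0), the area of a point is the width and the colour is the mean intensity over 7 libraries (log scale). At Zfp36l2 all 8 lie downstream of the start, and at Lmo2 6 of 8 lie upstream.

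Among Runt-domain and ETS factors, Runx1 had 4 of 36 distal OCRs broad. The one 24.6 kb downstream of a start ranged from 93.4 through 139.5 to 166, and the one 58.0 kb upstream from 78.5 through 128 to 136, so that these overlapped. Another lay 321 kb upstream with a mean of 54.7, where Runx1 was still the nearest protein-coding gene. Runx2 had 5 of 44, all in the gene, and the strongest of these ranged from 118 through 180.3 to 215 although no single library called a peak of 1500 bp there. Etv6, an ETS repressor, had 7 of 35. One 47.2 kb upstream of its nearest start ranged from 119.5 through 163 to 197 and overlapped a RefSeq start of an uncharacterised gene, and another had a mean of only 3.57. Erg had 3 of 14, with means of 126, 27.1 and 109. Myb had 3 of 8, within 8.33 kb of each other and all weak, with means of 4.54 to 5.74.

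Kit, whose ligand keeps these cells growing, had 5 broad among 32 distal OCRs. The strongest lay 114 kb upstream, chr5:75459937-75461674, and ranged from 89.6 through 116 to 149. The 1 inside the gene had a mean of 11.4, and 1 near it had a mean of 12.6. Cxcr4, the chemokine receptor that holds progenitors in the marrow, had 6 of 30, all outside the gene, and the one 22.7 kb upstream ranged from 96.1 through 115 to 136. Plcg2, a signalling phospholipase, had 7 of 23 and Inpp5d, which encodes the lipid phosphatase SHIP1, 5 of 17. In Vav1, a guanine nucleotide exchange factor of blood cells, 1 intronic region ranged from 167 through 228 to 278.

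Of genes mutated in leukaemia, Cux1 had 7 of 36, Idh2 5 of 7 and Tet2, a DNA demethylation enzyme, 3 of 17. None of those of Idh2 and Tet2 lay inside the gene, while 5 of those of Cux1 did. The strongest near Tet2 ranged from 83.9 through 112 to 138. Near Nsd1, which encodes a histone methyltransferase, 1 region had a mean of 179.7, and 1 in Dnmt3a, a DNA methyltransferase gene, had a mean of 133. Further listed genes with 3 or more members were Bach2 with 5 of 33 distal OCRs, Bcl2 with 4 of 25 and Foxo3 with 4 of 13. Notch2 had 4 of 21, Sox4 4 of 22 and Zbtb16 4 of 20. Bcl11a had 3 of 17, Cd34 3 of 10, Cd9 3 of 6, Ptprc 3 of 26, Rxra 3 of 8 and Syk 3 of 16. Of all distal OCRs, 11.2% were broad. Between these further genes the means ran from 4.76 in Sox4 to 152 near Ptprc, the gene of CD45. Among all listed genes, 22 had 2 members and 42 had 1. In the 20 strongest regions at listed genes the lowest value came from HPC7-6 in 20 of 20, and the highest from HPC7-4 in 10 and from HPC7-5 in 9. Others among these 20 lay near Ikzf1 (mean 185), which encodes Ikaros, near Klf6 (146), near Maf (141), near Srgn (138), the granule proteoglycan serglycin, in Zbtb16 (142) and near Ikzf2 (126).

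Sequence was not used to choose the members, so motif shares were tested. For each library the share of broad OCRs with a motif within 100 bp of the highest summit was set against that of narrower distal OCRs, a window that does not grow with width. The 7 differences were tested against 0 with an exact sign-flip permutation test (two-sided, Benjamini-Hochberg adjusted over 9 motifs), whose smallest p is 0.0156. Because the libraries share the regions, p covers only the spread between libraries. The GATA letters were in 21.5% ± 0.320 of broad and 17.01% ± 0.156 of narrower distal OCRs (SD, n = 7), a difference of 4.53 ± 0.353 points that was above 0 in 7 of 7 libraries (exact sign-flip permutation adjusted p = 0.0156). Against the narrower OCRs of at least 1000 bp it was 0.486 points (exact permutation adjusted p = 0.0527). Against the 8804 narrower OCRs that make up the most intense 25%, with a median intensity of 22.6, it was 0.912 points (exact permutation adjusted p = 0.0176). The same letters read backwards served as a control of equal composition for some motifs, and for GATA the difference was -2.397 points.

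The GC box, the site of SP and KLF factors, showed the largest difference of the 9 motifs within 100 bp of the summit, though within 50 bp its 3.02 points were fewer than the 3.27 of GATA and smaller in size than the -3.12 of CTCF. It was in 10.5% ± 0.212 of broad and 5.18% ± 0.0457 of narrower distal OCRs (difference 5.34 ± 0.187 points, n = 7, higher in 7 of 7, exact sign-flip permutation adjusted p = 0.0156). It was 3.55 points above the narrower OCRs of at least 1000 bp, 4.002 points above the most intense 25%, and 4.93 points higher when OCRs within 3 kb of a RefSeq start were left out as well. Base composition moved with it, since the windows held 52.0% ± 0.147 GC in broad and 48.9% ± 0.102 in narrower distal OCRs (difference 3.19 ± 0.0677 points, n = 7, exact sign-flip permutation p = 0.0156). Whether GC content accounts for the GC box was not tested.

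CTCF behaved the other way. Its consensus was in 3.73% ± 0.155 of broad and 7.30% ± 0.126 of narrower distal OCRs, a difference of -3.57 ± 0.114 points that was below 0 in 7 of 7 libraries (n = 7, exact sign-flip permutation adjusted p = 0.0156), and the difference was -1.07 points against the narrower OCRs of at least 1000 bp and -2.74 points against the most intense 25%. The reversed consensus was in 0.00321% of broad and 0.00162% of narrower distal OCRs, which is too rare for it to serve as a control.

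The E-box was higher in broad OCRs by 2.48 ± 0.287 points and the MEIS letters by 2.45 ± 0.362 points, both in 7 of 7 libraries (n = 7, exact sign-flip permutation adjusted p = 0.0156). Against the most intense 25% the E-box difference was 0.480 points, while that of MEIS was 0.216 points and no longer passed (exact permutation adjusted p = 0.266). RUNX and ETS changed sides with the comparison. The RUNX difference was 1.18 points against all narrower distal OCRs but -2.08 points against the most intense 25%, and that of ETS was 0.57 and -3.41 points. AP-1 differed by -0.525 points, by -2.82 points against the most intense 25%, and by -0.225 points without OCRs near RefSeq starts, where it did not pass (exact permutation adjusted p = 0.219). The AP-1 difference was -1.19 points without HPC7-1 and -0.311 points without HPC7-5, where it did not pass (exact permutation adjusted p = 0.0938). C/EBP differed by -0.657 points and, within 50 bp of the summit, by -0.0788 points, which did not pass (exact permutation adjusted p = 0.193). Within 250 bp the C/EBP difference was -1.84 points (exact permutation adjusted p = 0.0156). The letters read backwards differed by -0.957 points for AP-1, more than AP-1 itself, and by 0.409 points for ETS, close to the 0.57 of ETS. They differed by 0.111 points for RUNX and by -0.154 points for MEIS.

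**Figure D5:**
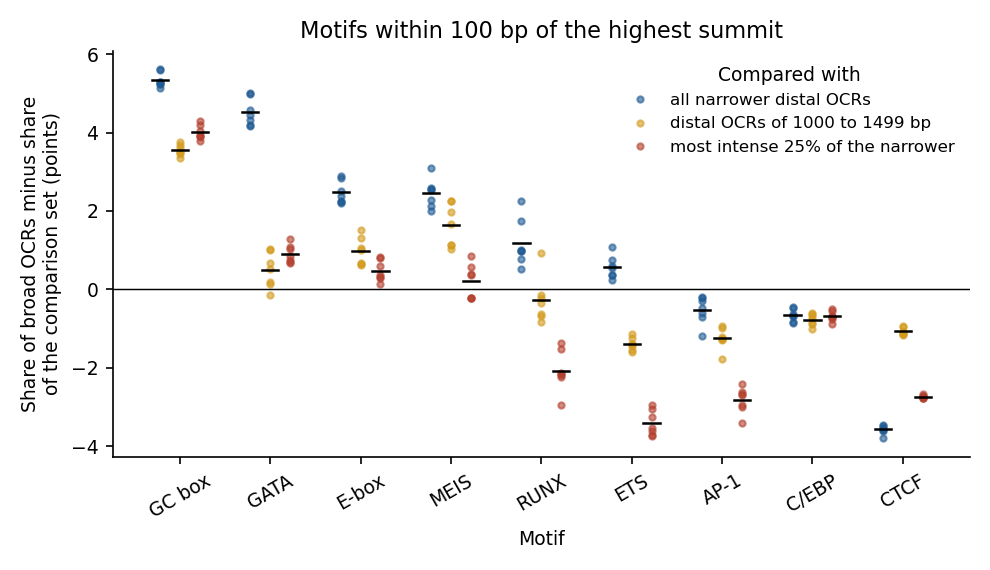
Share of broad distal OCRs with a motif within 100 bp of the highest summit, minus the share in a comparison set (vertical axis, percentage points), for 9 motifs. Each point is 1 of 7 libraries, black bars are means, and the colours give the comparison set. The GC box lies above 0 and CTCF below 0 against all 3 sets, while the means of RUNX and ETS lie above 0 only against all narrower distal OCRs.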

How the data were processed

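Per the methods and processing notes, adapters were removed by Cutadapt, BWA-mem placed the reads on mm10, and MACS2 was run once per library. Versions and options are not given in the sources used here. Each deposited list holds for a peak its interval and summit, a fold enrichment (a ratio of summit reads to background), a -log10 p and -log10 q, and a score that the authors' peak caller derived from the -log10 q. Whether values were normalized between libraries is not given in the sources used here. In every list 100% of the fold enrichments were whole steps of 1 read within 0.1 reads, from which summit reads and background were computed. The 7 libraries are 1 group, and any treatment behind the VD and EtOH prefixes is not known. The precision is the SD over libraries, and p-values measure the spread between these cultures only.

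The members and gene lists were chosen with earlier results of these data known. Genes and starts came from GENCODE M21, RefSeq starts and sequence from GRCm38.p6, and mitochondrial alignments from blastn 2.17.0. Named regions were the 8 most intense, 5 widest and 3 with most summit positions, the 20 most intense at listed genes, 3 on either side of the minimum width, and listed genes with 3 or more members, some of which are not reported here. Genes named beyond this rule (Arid1b, Haao, Cmip, Irf2bp2, Smad7, Zmiz1, Gse1 and Gm20388, by number of members) were chosen after their values were seen. Python 3.11.15, numpy 2.4.6, pandas 2.3.3 and scipy 1.17.1 were used, and the functions were tested on simulated data. Alternatives are given under the processing.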

Additional observations from a re-analysis of the deposited data

Results flagged for a closer look

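For 56 measures with 1 value a library, the highest and lowest library were compared with the others by Dixon's test, which chance passes in about 1 of 20. HPC7-1 stood apart in 3 of them. Its background was 20.4 reads against 4.44 to 7.45 in the other libraries, the median of the reads at the summits of broad distal OCRs was 902 against 153 to 310, and 4107 members held a single peak of at least 1500 bp there against 1271 to 2202. None of the 40 named regions had a library that stood apart in intensity by this test.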

How the results depend on the processing

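A minimum width of 1000 bp gave 10666 and one of 2000 bp gave 1968 distal OCRs, and 1632 had a single peak of 1500 bp or more in at least 4 libraries, an alternative chosen after seeing the data. The number was 5551 at more than 1 kb and 3635 at more than 5 kb from a start, 5323 with protein-coding starts only, 3871 away from RefSeq starts as well, and 3304 with 50% of the OCR covered in every library. Without each library in turn the number was 3151 to 4451, the lowest without HPC7-1. The intensity difference was 0.93 with -log10 q, 0.29 against narrower OCRs of at least 1000 bp, 0.59 at a -log10 q of at least 5, and 0.62 to 0.68 without each library. Members with several summit positions were 25.2% with summits joined within 75 bp, 30.7% within 300 bp, 50.6% with 2 and 0.494% with 7 libraries a position, and 20.2% to 25.1% without each library. Gene bodies held 56.4% with protein-coding genes only and 60.8% to 61.2% without each library, and 5.25% to 5.78% without each library were at a listed blood gene, beside 4.85% with a start within 50 kb, 5.17% by the nearest start only and 5.95% at a width of 2000 bp or more.

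For motifs the ETS difference reversed to -0.866 points within 50 bp, -1.39 against narrower OCRs of at least 1000 bp and -3.41 against the most intense 25%. With a single wide peak in 4 libraries it was -0.102, which did not pass (exact permutation adjusted p = 0.422). RUNX reversed to -2.08 against the most intense 25%. It was -0.267 against those of at least 1000 bp, which did not pass (exact permutation adjusted p = 0.25). Nor did it pass within 50 bp (0.110) or with a single wide peak (0.238). GATA did not pass against those of at least 1000 bp (0.486), MEIS against the most intense 25% (0.216), C/EBP within 50 bp (-0.0788) and AP-1 away from RefSeq starts (-0.225). The cause was not tested. Without each library the points were 4.24 to 4.99 for GATA, 5.31 to 5.89 for the GC box, 1.99 to 2.57 for the E-box, 1.85 to 2.57 for MEIS, 1.06 to 1.57 for RUNX, 0.455 to 0.768 for ETS, -1.19 to -0.311 for AP-1, -0.831 to -0.456 for C/EBP and -4.12 to -3.18 for CTCF, and AP-1 did not pass without HPC7-5 (-0.311) and was -1.19 without HPC7-1. GC differed by 3.20 to 3.30 points. With all libraries and a window of 250 bp either side, all 9 motif differences kept direction and passed. They were 2.69 points for GATA, 9.18 for the GC box, 5.63 for the E-box, 4.61 for MEIS and 1.72 for RUNX. Those of ETS, AP-1, C/EBP and CTCF were 2.01, -0.210, -1.84 and -3.21 points. In all, 71 of 94 values under an alternative, leave-outs aside, kept direction and call or, with no test, stayed within 1.5 times the reported count or within the spread or interval of the value.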
